A study of Mus musculus with 6 samples.

Results

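Nitric oxide, arginine and itaconate metabolism was followed through 7 genes in primary mouse embryo fibroblasts, the connective tissue cells that grow out of dissociated embryos. The genes were Nos2, Gch1, Slc7a2, Ass1, Arg2, Odc1 and Acod1, chosen by name with earlier results of these data known. They were read by 14 of the 45101 probe sets of an Affymetrix mouse genome array, each listed with exactly 1 of these symbols. All 7 were among the 12917 genes bright enough to be tested. Each of 2 ICR mouse embryos, taken at embryonic day 15.5, gave 1 culture, and every group was measured in both cultures. In the HS+LPS group a heat shock of 1 h at 42 °C was followed by lipopolysaccharide (LPS, from Escherichia coli 0127:B8) for 4 h. The LPS group received LPS at 1 μg/ml for 4 h without heat, and the Control group stayed at 37 °C with neither. All cells grew in DMEM with 10% fetal bovine serum. A group given heat without LPS was not analysed here, so HS+LPS against LPS holds the effect of heat as well as any effect of heat on the LPS response.

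Arginine is the substrate of competing enzymes. Nitric oxide synthases turn it into citrulline and nitric oxide, a short-lived gas that kills microbes and relaxes vessels, and the inducible form, Nos2, is switched on by bacterial products in macrophages and in many other cells, fibroblasts among them. Nos2 needs tetrahydrobiopterin as a cofactor, whose synthesis starts with GTP cyclohydrolase, the product of Gch1. Slc7a2 brings arginine into the cell, and Ass1 carries out the first step that remakes arginine from citrulline. Arg2, the mitochondrial arginase, splits arginine into urea and ornithine, and Odc1 turns ornithine into putrescine, the first polyamine. Acod1, also called Irg1, makes itaconate from cis-aconitate, an intermediate of the tricarboxylic acid cycle, and itaconate inhibits succinate dehydrogenase and the growth of some bacteria.

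Signals are in the deposited linear scaled units, scaled to 1 trimmed mean for all arrays, which hides any change in total mRNA. Array medians were 11.9 to 14.4, and replicate arrays correlated across genes at 0.966 to 0.968. The brightest of 27 control probe sets for Bacillus subtilis genes, 6.0 to 7.67 over the 6 arrays, was taken as the noise level. The fibroblast markers fixed for the check (Col1a1, Col1a2, Col3a1, Pdgfra, Pdgfrb, Thy1, Vim, Dcn, Lum and Fn1) were above it on every array, 10 of 10. Precision is limited by 2 arrays a group. In cultures measured in bulk, fewer responding cells and less RNA per cell cannot be told apart.

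The promoters of 3 of the genes are shown because 2 of them, Acod1 and Gch1, belong to genes that were higher with LPS and the other, Odc1, to one whose signal hardly moved. RefSeq sequence (build GRCm38.p6) was matched for 4 of the 7 genes, Ass1 being the other. Each stretch is the 250 bases before the start of the gene, read 5′ to 3′ on the strand of the gene: chr14:103046762-103047011 on the plus strand for Acod1, chr14:47189414-47189663 on the minus strand for Gch1 and chr12:17544623-17544872 on the plus strand for Odc1. Capitals mark matches, on either strand, to any of 10 short motifs that were searched.
Acod1: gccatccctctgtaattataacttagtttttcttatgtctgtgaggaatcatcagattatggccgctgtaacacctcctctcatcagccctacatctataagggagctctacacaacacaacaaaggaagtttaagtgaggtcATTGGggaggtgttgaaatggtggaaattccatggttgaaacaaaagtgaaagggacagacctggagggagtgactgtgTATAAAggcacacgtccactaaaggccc
Gch1: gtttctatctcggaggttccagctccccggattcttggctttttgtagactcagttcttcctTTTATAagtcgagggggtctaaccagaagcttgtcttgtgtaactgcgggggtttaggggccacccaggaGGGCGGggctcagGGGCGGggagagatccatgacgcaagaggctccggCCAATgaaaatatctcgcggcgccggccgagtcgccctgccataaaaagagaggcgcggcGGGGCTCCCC
Odc1: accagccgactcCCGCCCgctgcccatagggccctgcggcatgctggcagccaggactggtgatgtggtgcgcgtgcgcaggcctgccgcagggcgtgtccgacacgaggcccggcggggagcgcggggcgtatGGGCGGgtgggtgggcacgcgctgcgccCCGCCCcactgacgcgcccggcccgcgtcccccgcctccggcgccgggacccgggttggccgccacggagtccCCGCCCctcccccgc
The motifs were the TATA box with the letters TATAAA, the CCAAT box, the GC box with the letters GGGCGG, the E-box with CACGTG, the cyclic AMP response element with TGACGTCA, the AP-1 motif with TGANTCA, the C/EBP motif with TTGCNNAA, the heat shock element with GAANNTTC, the interferon-stimulated response element and the degenerate NF-kB consensus. Acod1 held TATAAA beginning 28 bases before the start and CCAAT on the strand opposite to the gene 107 bases before it. Gch1 held a match to the NF-kB consensus 10 bases before the start, CCAAT 70 bases before it, GGGCGG at 118 and 105 bases, and TATAAA on the strand opposite to the gene at 188 bases. Odc1 held 4 matches to GGGCGG and none of the other motifs, and Ass1 held GGGCGG and CACGTG once each. Of 32851 promoter windows of the same length, 7.25% held the NF-kB consensus, 12.4% TATAAA, 33.8% CCAAT, 32.7% GGGCGG and 6.02% CACGTG. These matches describe the letters of the windows and were found after the array values were known. The 4 promoters also differed in base composition, with 44.4% G and C in Acod1, 59.2% in Gch1, 75.6% in Ass1 and 80% in Odc1.

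The level of each gene on every array is given first, culture 1 before culture 2, from its brightest probe set. Nos2 read 0.817 and 0.948 with HS+LPS, 62.4 and 73.1 with LPS, and 1.14 and 1.04 in Control. It was thus above the noise level in both LPS cultures and under it on all other arrays. Gch1 read 59.2 and 55.9 with HS+LPS, 224 and 182 with LPS, and 71.3 and 38.4 in Control. Both LPS arrays lay above all others, and the HS+LPS values fell between the Control values, so Gch1, unlike Nos2, was transcribed at a measurable level without LPS. Slc7a2 read 76.4 and 135 with HS+LPS, 1098 and 958 with LPS, and 136 and 180.1 in Control. Its LPS values stood apart, and both HS+LPS values were under the lower Control value, the higher of them by little.

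Ass1 read 32.8 and 19.7 with HS+LPS, 59.7 and 12.7 with LPS, and 19.1 and 7.90 in Control. The LPS values lay far apart and took in those of HS+LPS, whose lower value was just above the higher Control value. Culture 1 was higher than culture 2 in each group. Arg2 read 2.25 and 3.72 with HS+LPS, 20.6 and 49.2 with LPS, and 3.47 and 5.24 in Control. Only the LPS arrays were above noise, and for this gene culture 2 was the higher one in each group. Odc1 read 1224 and 1135 with HS+LPS, 1371 and 1070.1 with LPS, and 1276 and 958 in Control, with the groups overlapping throughout. Acod1 read 0.735 and 1.43 with HS+LPS, 138 and 60.1 with LPS, and 0.438 and 1.09 in Control. Like Nos2 and Arg2 it was at or under noise on every array without LPS alone, and its LPS signal was higher in culture 1, the reverse of Arg2.

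**Figure D1:**
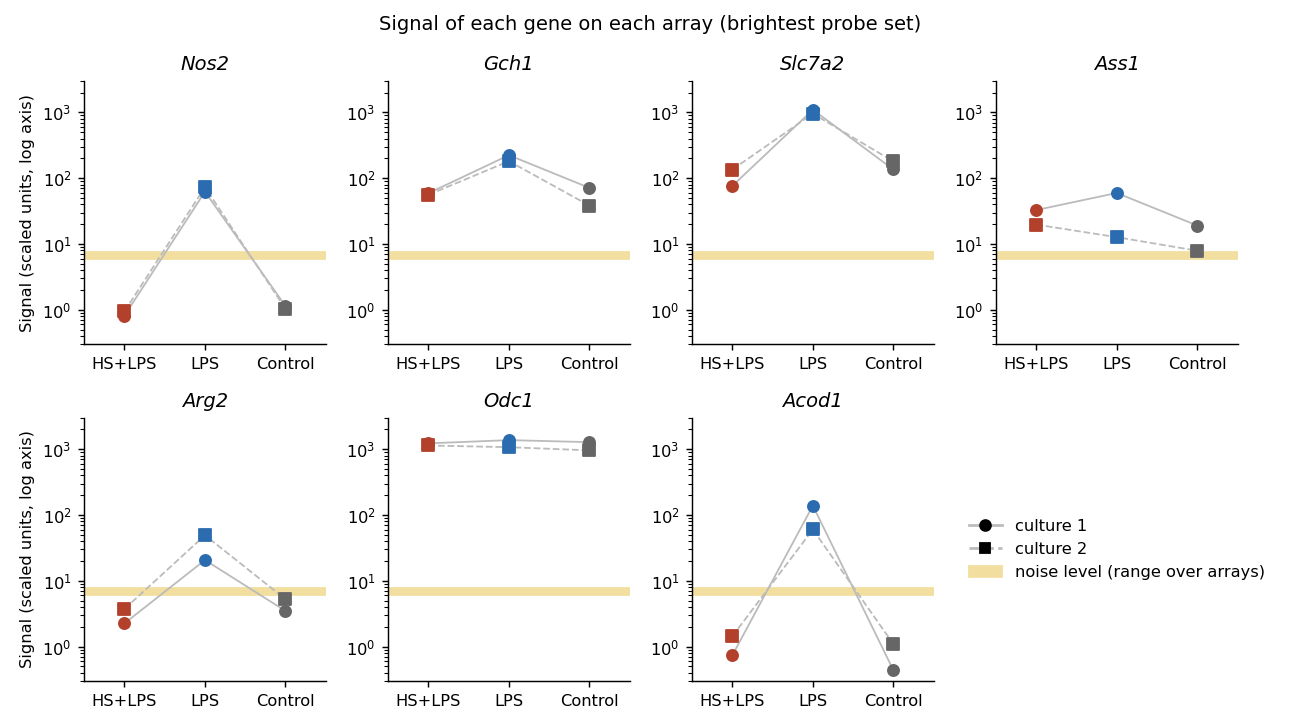
Signal of the 7 genes on each of the 6 arrays (log axis, scaled units), with circles and solid lines for culture 1, squares and dashed lines for culture 2, and the band spanning the noise levels of 6.0 to 7.67. Nos2, Arg2 and Acod1 lie above the band with LPS alone, Gch1 and Slc7a2 peak with LPS from a measurable base, and Odc1 stays between 958 and 1371.

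The question of LPS against Control is what the stimulus did to these genes in unheated cells. Nos2 and Acod1 rose, with signals well above the noise level in both LPS cultures and under it in both Control cultures. Nos2 averaged 67.7 ± 7.53 with LPS and 1.09 ± 0.0742 in Control (SD, n = 2 each), at least 9.75-fold higher against the noise level. Acod1 averaged 99.2 ± 55.4 with LPS and 0.766 ± 0.464 in Control, at least 13.2-fold higher. Slc7a2, Arg2 and Gch1 were also higher with LPS in both cultures. They did not pass in this fit and passed when the culture was added to it as a block. Odc1 and Ass1 passed neither way.

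Tests were made with limma over all 12917 genes, with Benjamini-Hochberg adjustment and 0.05 as the threshold, on log2 values with 3.37 added to each signal. This addition understates the change of dim genes. Of the 7 genes 2 rose, 0 fell and 5 did not pass, where 0.147% of all genes tested rose. Nos2, Acod1 and Arg2 passed the filter on low signals only through their LPS arrays, so this count, like that for HS+LPS against LPS, describes the list and supports nothing. With the culture as a block 5 rose, with the same limit, where 2.06% of all genes rose and 0.72% fell. Nos2 had a log2 difference of 3.99 (SE 0.31, adjusted p = 0.017) and Acod1 of 4.52 (SE 0.45, adjusted p = 0.0418). For Slc7a2 the log2 difference was 2.69 (SE 0.29), a 6.44-fold change, with an adjusted p of 0.0539 that became 0.000164 with the block. Without the block it passed in 4 alternatives, with adjusted p of 0.0405 at a pseudocount of 16, 0.0404 with median centring, 0.0440 for the mean of its probe sets and 0.0495 without _x_at and _s_at probe sets, whose probes can match several transcripts. Its signal averaged 1028 ± 98.5 with LPS and 158 ± 31.2 in Control. Gch1 averaged 203 ± 30.1 with LPS and 54.9 ± 23.3 in Control, a 3.67-fold difference (adjusted p = 0.157, with the block 0.000965). Arg2 averaged 34.9 ± 20.2 with LPS and 4.36 ± 1.25 in Control, and so was at least 4.59-fold higher (adjusted p = 0.349, with the block 0.0216).

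The remaining pair did not pass with or without the block. For Odc1 the log2 difference was 0.13, with a 95% confidence interval from -0.32 to 0.59 (adjusted p = 0.999). For Ass1 it was 1.00 with an interval from -0.72 to 2.72 (adjusted p = 0.999). Its differences were 1.49 in culture 1 and 0.51 in culture 2, and with the block its SE was 0.34 in place of 0.70 and its adjusted p 0.199. The median log2 difference of the 7 genes was 2.21, or 2.20 with Nos2, Arg2 and Acod1 at their bounds, beside -0.05 over all genes tested. The same limit holds for this median. Among all genes tested, the middle 90% of log2 differences lay between -0.50 and 0.54. The calls of Nos2 and Acod1 ended without any 1 of the 6 arrays, with adjusted p from 0.0555 to 0.263 for Nos2 and from 0.114 to 0.339 for Acod1, while their log2 differences stayed at 3.88 to 4.10 and 3.94 to 5.10.

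**Figure D2:**
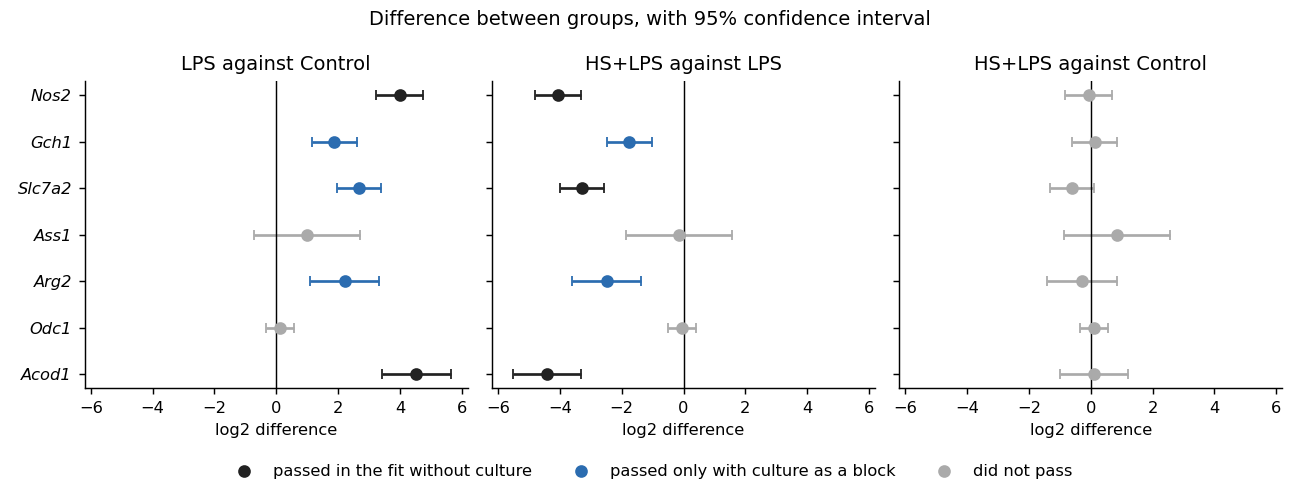
Log2 difference of each gene in the 3 comparisons, with 95% confidence intervals from the fit without culture. Black marks genes that passed in that fit, blue those that passed with the culture as a block but not in that fit, and grey those that did not pass. Nos2 and Acod1 stand near 4 and 4.5 with LPS and near -4 and -4.5 with prior heat shock, and every interval for HS+LPS against Control includes 0.

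HS+LPS against LPS asks what a preceding heat shock did to the same genes. Nos2, Acod1 and Slc7a2 fell. Nos2 averaged 0.882 ± 0.0924 with HS+LPS and 67.7 ± 7.53 with LPS, at least 9.28-fold lower, and Acod1 averaged 1.08 ± 0.494 and was at least 12.5-fold lower. Both were under the noise level in each heat-shocked culture, so what remained of either transcript was not measurable. Slc7a2, whose level stayed measurable, averaged 106 ± 41.6 with HS+LPS and 1028 ± 98.5 with LPS. Gch1 and Arg2 were lower in both cultures, did not pass in this fit and passed with the block.

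Of the 7 genes 3 fell, 0 rose and 4 did not pass, where 0.828% of all genes tested fell and 0.511% rose. With the block 5 fell, where 12.6% of all genes fell and 6.32% rose, larger shares than for LPS against Control. Both counts only describe the list, since Nos2, Acod1 and Arg2 passed the filter through their LPS arrays alone. The log2 difference was -4.06 for Nos2 (SE 0.31, adjusted p = 0.00836), -4.42 for Acod1 (SE 0.45, adjusted p = 0.0205) and -3.29 for Slc7a2 (SE 0.29, adjusted p = 0.0144). On this scale Slc7a2 was 9.78-fold lower. Gch1 averaged 57.5 ± 2.29 with HS+LPS and 203 ± 30.1 with LPS, 3.37-fold lower (adjusted p = 0.0599, with the block 0.000542). Without the block Gch1 passed in 4 alternatives, with adjusted p of 0.0493 at a pseudocount of 16, 0.0420 with median centring, 0.0415 without Control 1 and 0.0396 without Control 2. Arg2 averaged 2.98 ± 1.04 with HS+LPS and 34.9 ± 20.2 with LPS, at least 4.37-fold lower (adjusted p = 0.0725, with the block 0.00392).

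Odc1 averaged 1180 ± 62.9 with HS+LPS and 1220 ± 213 with LPS, a log2 difference of -0.04 with an interval from -0.49 to 0.42 (adjusted p = 0.947). Ass1 averaged 26.3 ± 9.25 with HS+LPS and 36.2 ± 33.2 with LPS (log2 difference -0.14, interval -1.86 to 1.58, adjusted p = 0.95). The cultures went opposite ways, with a log2 difference of -0.80 in the first and 0.52 in the second. The median over the 7 genes was -2.49, or -2.13 with Nos2, Arg2 and Acod1 at their bounds, beside -0.05 over all genes tested, whose middle 90% lay between -0.88 and 0.64. Nos2, Arg2 and Acod1 passed the filter only through their LPS arrays, so this median describes the list and supports nothing. Without LPS 1 or without LPS 2 none of the 3 calls held (adjusted p from 0.0732 to 0.128), with log2 differences of -4.17 and -3.95 for Nos2, -3.19 and -3.39 for Slc7a2 and -3.84 and -5.00 for Acod1. Without HS+LPS 1 or HS+LPS 2 only that of Slc7a2 did.

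HS+LPS against Control sets the heat-shocked, stimulated cells beside cells that had neither. None of the 7 genes passed. Nos2, Acod1 and Arg2 were at or under noise on all 4 arrays, so no fold can be given. Gch1 averaged 57.5 ± 2.29 with HS+LPS and 54.9 ± 23.3 in Control (log2 difference 0.12, interval -0.60 to 0.85). Slc7a2 averaged 106 ± 41.6 with HS+LPS and 158 ± 31.2 in Control, a log2 difference of -0.60 with an interval from -1.31 to 0.10 (adjusted p = 0.385, with the block 0.0632). Its log2 difference was -0.80 in culture 1 and -0.40 in culture 2, and over its 4 probe sets the fitted difference ran from -0.60 to 0.0012. Ass1 had a log2 difference of 0.86 (interval -0.86 to 2.58) and Odc1 of 0.09 (interval -0.36 to 0.55). In the limma fit 0 of the 7 genes passed, with or without the block, and 0 had an unadjusted p under 0.05. Of all genes tested 0.17% rose and 0.00774% fell, with the block 5.09% rose and 12.1% fell, and 16.2% had an unadjusted p under 0.05. The 3 comparisons share arrays, so the fall with heat shock and the rise with LPS are not independent readings: both rest on the same 2 LPS arrays.

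The other probe sets of the genes were used as a check, each tested in a fit of all 27022 probe sets above the filter. All 4 probe sets of Slc7a2 were higher with LPS, with log2 differences of 2.16 to 2.93. In HS+LPS against LPS all 4 fell, with log2 differences of -3.29 to -2.66 and adjusted p from 0.00384 to 0.0485. The third brightest of them also passed for LPS against Control (log2 difference 2.55, SE 0.17, adjusted p = 0.0247). The second Gch1 probe set read 19.6 and 29.6 with HS+LPS, 92.5 and 69.8 with LPS, and 21.0 and 14.6 in Control, close to the first in its differences (2.00 for LPS against Control and -1.61 for HS+LPS against LPS). The second Arg2 probe set was above noise on both LPS arrays, at 9.86 and 25.7, and on no other, and it was too dim to be tested. The 3 Odc1 probe sets differed by 0.13 to 0.28 for LPS against Control and by -0.04 to 0.06 for HS+LPS against LPS, and none passed in either comparison (adjusted p from 0.92 to 1.00).

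**Figure D3:**
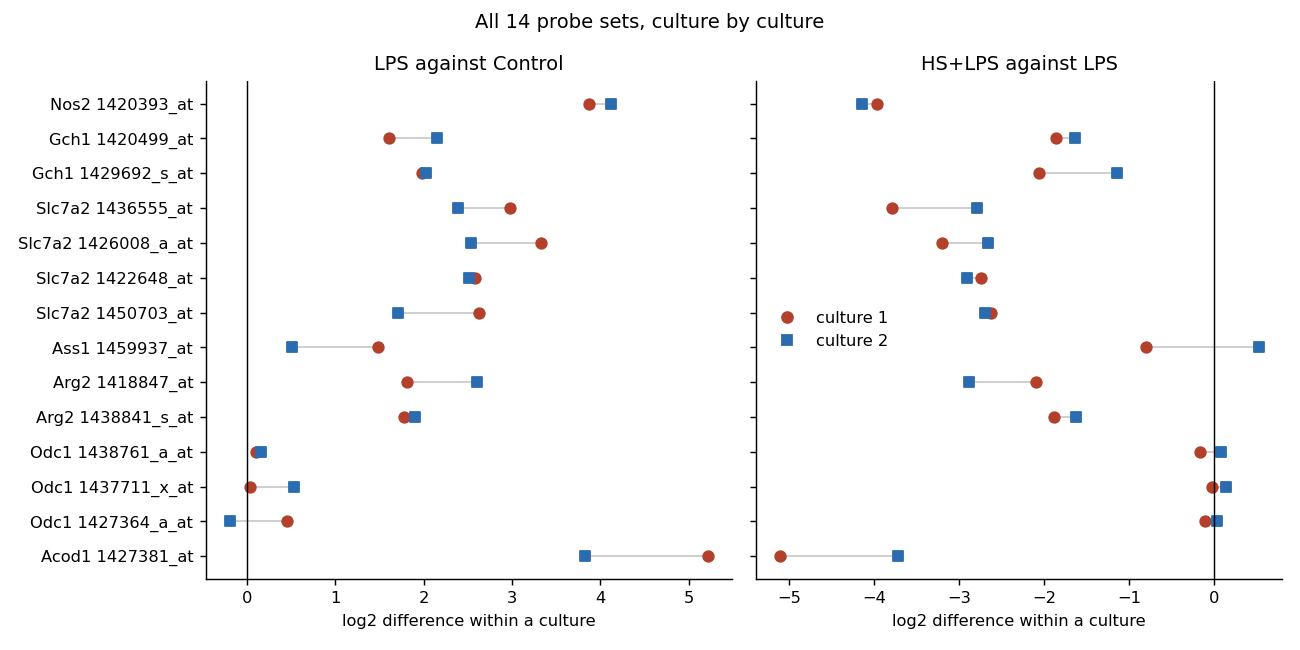
Log2 difference within culture 1 (circles) and culture 2 (squares) for all 14 probe sets, LPS against Control on the left and HS+LPS against LPS on the right. All probe sets of Nos2, Gch1, Slc7a2, Arg2 and Acod1 lie right of 0 on the left and left of 0 on the right in both cultures, and the Odc1 probe sets lie near 0.

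Ass1 was read with its own symbol by 1 dim probe set. Another, brighter probe set is listed with Ass1 and the pseudogene Gm5424, and its signal was assigned to neither. It read 1867 and 1485 with HS+LPS, 1761 and 1725 with LPS, and 1616 and 1545 in Control. Both LPS values lay above both Control values and between the HS+LPS values, and its log2 differences were 0.14 for LPS against Control and -0.07 for HS+LPS against LPS (adjusted p = 1.00 and 0.88 in the fit of all probe sets).

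The size of the response differed between the cultures in ways that were not the same for each gene. For LPS against Control the log2 difference of Acod1 was 5.22 in culture 1 and 3.83 in culture 2, and that of Slc7a2 2.98 and 2.39. Gch1 and Arg2 went the other way, with 1.61 and 2.15 for Gch1 and 1.81 and 2.61 for Arg2. For Nos2 the cultures were close, at 3.87 and 4.12. With 1 array per culture and group these differences have no test. The cultures also differed in sex-linked genes. Eif2s3y, a gene of the Y chromosome, read 368 to 394 in culture 1 and 0.114 to 2.33 in culture 2. Xist, which marks cells with an inactive X chromosome, read 6.33 to 12.4 in culture 1 and 380 to 498 in culture 2. By these genes culture 1 was male and culture 2 female. Some fibroblast markers also differed. Lum read 119 to 188 in culture 1 and 1578 to 1820 in culture 2, Dcn 333 to 543 and 1653 to 1862, and Pdgfra 117 to 302 and 573 to 1309. Others differed less, such as Vim with 7119 to 7784 and 5981 to 7211. The part of sex or of any difference in cell make-up in the differences between cultures was not tested.

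The rest of the pathway was read from 7 lists with 88 further genes, of which 79 had a probe set with their symbol alone and 71 were tested. In the limma fit 0 of the 71 passed in any of the 3 comparisons. At an unadjusted p under 0.05 there were 3 for LPS against Control, 9 for HS+LPS against LPS and 7 for HS+LPS against Control, where 4.87%, 16.8% and 16.2% of all genes tested had one. In the blocked fit the counts were 1 higher and 1 lower for LPS against Control, where 2.06% of all genes rose and 0.72% fell. For HS+LPS against LPS they were 1 higher and 7 lower, where 6.32% of all genes rose and 12.6% fell. For HS+LPS against Control they were 0 higher and 9 lower, where 5.09% of all genes rose and 12.1% fell. The median log2 differences of the 71 genes were -0.09, 0.02 and -0.07, beside -0.05, -0.05 and -0.09 over all genes tested.

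The closest relatives of the responsive genes did not pass where they were tested. The neuronal and endothelial nitric oxide synthases, Nos1 and Nos3, were dim: Nos1 read 13.0 ± 2.16 with HS+LPS, 17.0 ± 9.89 with LPS and 13.6 ± 8.66 in Control. Nos3 read 14.4 ± 6.65, 7.88 ± 0.444 and 11.5 ± 1.28 in the same groups. Arg1, the cytosolic arginase known from liver and from alternatively activated macrophages, was under noise on all 6 arrays and too dim to be tested. Slc7a1, the housekeeping transporter of cationic amino acids, read 462 ± 30.4 with HS+LPS, 423 ± 61.3 with LPS and 449 ± 35.6 in Control. Asl, which completes the return of citrulline to arginine, read 152 ± 6.50, 138 ± 5.13 and 167 ± 11.1.

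Of the later steps of tetrahydrobiopterin synthesis, Pts read 97.7 ± 24.0 with HS+LPS, 85.2 ± 23.3 with LPS and 97.8 ± 15.7 in Control. Spr read 138 ± 37.6, 146 ± 17.2 and 144 ± 30.1, and Gchfr, which encodes the feedback regulator of GTP cyclohydrolase, 62.5 ± 3.48, 62.3 ± 5.80 and 70.5 ± 10.8. All 6 tested genes of this list other than Gch1 lay between -0.25 and 0.03 on the log2 scale for LPS against Control. Gch1, at 1.88, lay outside that range, and it passed with the block but not without it.

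Transport of cationic amino acids was read from 7 genes beside Slc7a2. For HS+LPS against LPS 3 of these 7 fell with the block, where 12.6% of all genes did. Slc38a9, a lysosomal sensor and transporter of arginine, read 19.6 ± 3.71 with HS+LPS and 45.3 ± 0.562 with LPS (log2 difference -1.09, adjusted p = 0.0868, with the block 0.00916). Slc66a1, which exports cationic amino acids from the lysosome, read 68.9 ± 24.0 and 129 ± 10.1 in the same groups (adjusted p = 0.171, with the block 0.00535). Control values of these genes, 44.7 ± 3.08 and 127 ± 17.4, were close to those with LPS, unlike the pattern of Slc7a2. Slc7a7, a light chain of a membrane transporter that exchanges cationic for neutral amino acids, read 19.3 ± 4.26 with HS+LPS, 41.0 ± 8.25 with LPS and 21.5 ± 0.936 in Control (HS+LPS against LPS adjusted p = 0.154, with the block 0.0238). Slc7a6, a related light chain, read 139 ± 16.9 with HS+LPS and 190 ± 8.51 in Control (adjusted p = 0.245, with the block 0.0429).

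Among polyamine genes 13 were tested beside Odc1. With the block 1 of them rose for LPS against Control, where 2.06% of all genes did. In HS+LPS against LPS 1 fell and in HS+LPS against Control 2, where 12.6% and 12.1% of all genes did. Smox, which oxidises spermine, read 150.3 ± 14.9 with LPS and 95.6 ± 4.81 in Control (log2 difference 0.63, adjusted p = 0.559, with the block 0.0394). Sat1, which acetylates polyamines for export and breakdown, read 1049 ± 155 with HS+LPS, 1681 ± 198 with LPS and 1572 ± 325 in Control. Its log2 difference was -0.68 for HS+LPS against LPS (adjusted p = 0.164, with the block 0.00063). For HS+LPS against Control it was -0.57 (adjusted p = 0.226, with the block 0.00211). Azin2, an antizyme inhibitor, read 60.3 ± 1.74 with HS+LPS and 95.3 ± 8.18 in Control (adjusted p = 0.214, with the block 0.0416). Other regulators of ornithine decarboxylase, Oaz1 and Azin1, did not pass. Oaz1, the antizyme that targets it for degradation, read 3586 ± 31.0 with HS+LPS, 3041 ± 25.7 with LPS and 3389 ± 249 in Control. Azin1, which opposes antizyme, read 388 ± 65.3, 369 ± 23.7 and 346 ± 33.5.

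The tricarboxylic acid cycle list, 23 tested genes beside Acod1, had log2 differences between -0.42 and 0.06 for LPS against Control and between -0.30 and 0.25 for HS+LPS against LPS. Idh1, the cytosolic isocitrate dehydrogenase, was the only one of the 23 called with the block, lower for LPS against Control and for HS+LPS against Control. With the block 0.72% and 12.1% of all genes fell in these comparisons. Idh1 read 985 ± 366 with LPS and 1335 ± 557 in Control (adjusted p = 0.999, with the block 0.0179). Nosip, which encodes a protein that binds endothelial nitric oxide synthase, read 122 ± 0.605 with HS+LPS, 172 ± 23.2 with LPS and 189 ± 18.5 in Control. Its adjusted p was 0.223 for HS+LPS against LPS (with the block 0.0218) and 0.156 for HS+LPS against Control (with the block 0.00903). Receptors and kinases of nitric oxide signalling through cyclic GMP were read as well. Of the 8 genes of that list 1 rose and 2 fell with the block for HS+LPS against LPS, where 6.32% and 12.6% of all genes did. Gucy1a2, a guanylate cyclase subunit, read 66.0 ± 38.4 with HS+LPS, 112 ± 53.1 with LPS and 118 ± 58.3 in Control (HS+LPS against LPS adjusted p = 0.545, with the block 0.00613). The kinase Prkg1 read 228 ± 29.2, 304 ± 8.65 and 331 ± 0.632 in the same groups (0.219, with the block 0.0214). Prkg2 read 275 ± 59.8, 180.5 ± 36.3 and 228 ± 80.0 (0.381, with the block 0.00798). With the block Gucy1a2 and Prkg1 were also lower in HS+LPS against Control (adjusted p = 0.0052 and 0.00855), where 12.1% of all genes fell. Prkg2 did not pass in that comparison.

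**Figure D4:**
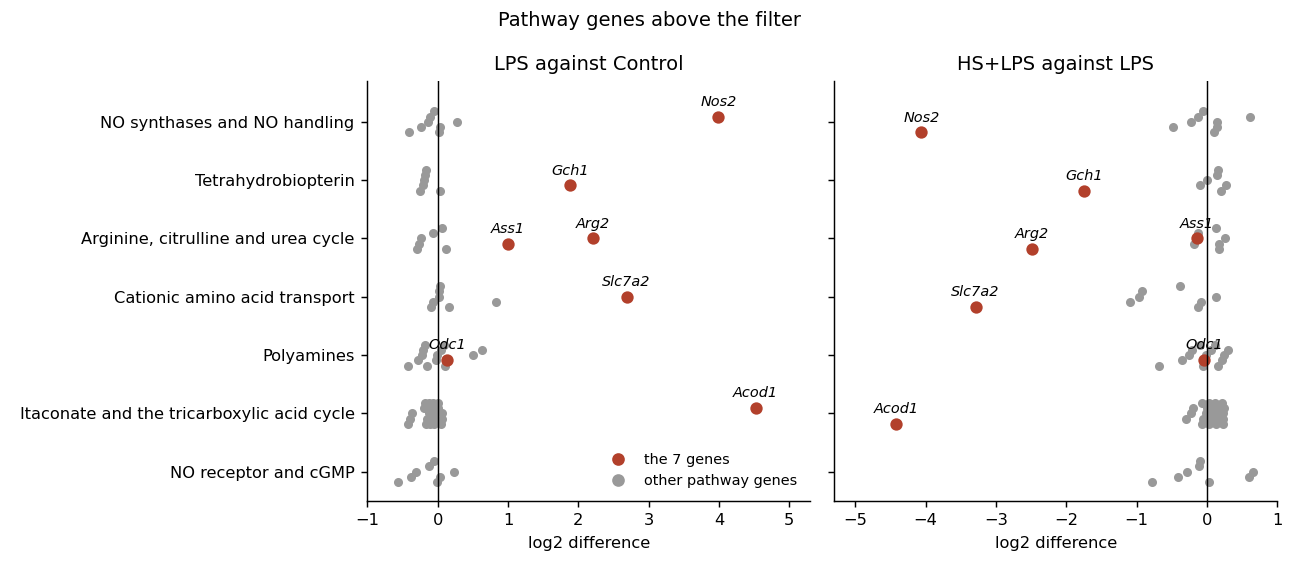
Log2 differences of the tested genes of the 7 pathway lists, LPS against Control on the left and HS+LPS against LPS on the right; red points are the 7 genes and grey points the other 71. Nos2, Gch1, Slc7a2, Arg2 and Acod1 lie outside the range of the grey points of their own list, while Odc1 lies within that of the polyamine genes in both panels and Ass1 lies outside that of its list on the left only.

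The genes whose signal ran most like each of the 7 across the 6 arrays were taken as the 3 with the highest Pearson correlation of log2 signal. The arrays fall into 3 groups and 2 cultures, so these values only describe likeness. For Nos2 they were Gpr84, a receptor for medium-chain fatty acids, Casp4, an inflammatory caspase that senses cytosolic LPS, and the chemokine Ccl9 (r = 0.997, 0.995 and 0.994). Gpr84 read 7.99 and 8.92 with HS+LPS, 44.9 and 42.2 with LPS, and 9.98 and 9.31 in Control. For Acod1 the nearest was Tnf, the inflammatory cytokine (r = 0.998), followed by Zfpm2, a cofactor of GATA factors, and Micall2. Tnf read 1.77 and 2.46 with HS+LPS, 47.5 and 31.1 with LPS, and 1.07 and 1.44 in Control, with the LPS signal higher in culture 1 as for Acod1.

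For Slc7a2 the nearest were the interferon-inducible GTPase Igtp, the sugar transporter Slc2a6 and the adhesion molecule Vcam1 (r = 0.995, 0.994 and 0.992). For Gch1 they were the prostaglandin transporter Slco2a1, Ttc17 and Lcn2, which binds bacterial siderophores (r = 0.995, 0.993 and 0.990). For Arg2 they were Mmp3, a matrix protease, Tapbpl and the guidance factor Ntn1 (r = 0.994, 0.993 and 0.992), and Mmp3 was higher in culture 2 than in culture 1 in each group, as Arg2 was. The genes nearest to Odc1 (Rnf103, Leng8 and Stau2, r = 0.989 to 0.992) and to Ass1 (Slc25a25, Rangap1 and Eif3a, r = 0.977 to 0.988) were higher in culture 1 in each group. The likeness was taken from the brightest Odc1 probe set. Its second brightest read 963 and 1117 with HS+LPS, 977 and 1013 with LPS, and 952 and 700 in Control.

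Because Nos2 and Acod1 are known above all from macrophages, markers of other cells that an embryo culture could hold were read beside them. The summed signal of 15 macrophage and leukocyte markers was 375 to 524 with HS+LPS, 368 to 568 with LPS and 379 to 601 in Control, and culture 1 had the higher sum in each group. On each array 11 or 12 of the 15 were above noise. Lyz2, Cd53, Csf1r, Cd68 and Adgre1 were among those above it on all 6 arrays, while Itgam, Fcgr1 and Aif1 were at or under it on all 6. Of the 12 tested, 0 passed in the limma fit in any comparison (0, 3 and 0 at an unadjusted p under 0.05 for LPS against Control, HS+LPS against LPS and HS+LPS against Control, where 4.87%, 16.8% and 16.2% of all genes had one). Of the 3 for HS+LPS against LPS, Cx3cr1 was higher with HS+LPS (log2 difference 1.29, with the block adjusted p = 0.0401). Spi1 and Coro1a differed the other way, as Nos2 and Acod1 did, with log2 differences of -0.85 and -0.75 (adjusted p = 0.26 and 0.292, with the block 0.122 and 0.135). Spi1 read 8.49 and 7.56 with HS+LPS, 17.1 and 17.3 with LPS, and 12.1 and 7.07 in Control. Coro1a read 11.4 and 8.66 with HS+LPS, 23.0 and 15.7 with LPS, and 12.5 and 13.9 in Control. Ptprc and Tyrobp had log2 differences of -0.85 and -0.81 and did not pass (adjusted p = 0.506 and 0.514). Sums for 7 endothelial markers were 74.6 to 110 with HS+LPS, 43.6 to 98.3 with LPS and 70.1 to 78.0 in Control, and those for 6 epithelial markers 89.3 to 126, 52.2 to 96.3 and 54.3 to 61.3. On each array 3 to 5 of the 7 endothelial and 3 or 4 of the 6 epithelial markers were above noise. Tek, Emcn and Kdr of the first list and Epcam and Krt18 of the second were above it on all 6 arrays. Pecam1, Tie1 and Cdh1 were at or under noise throughout, as were the liver proteins Afp and Apoa1. Of the 6 hepatocyte markers 0 to 4 were above noise on an array. Sums for 6 hepatocyte markers were 20.7 to 26.6 with HS+LPS, 15.5 to 37.9 with LPS and 31.7 to 33.9 in Control. With the block the epithelial keratin Krt18 was higher with HS+LPS than with LPS (log2 difference 1.25, adjusted p = 0.281, with the block 0.0464). Of the 10 fibroblast markers Pdgfrb, a receptor of platelet-derived growth factor, fell in HS+LPS against LPS (log2 difference -0.81, adjusted p = 0.0277), where 0.828% of all genes fell. With the block Pdgfra fell as well, where 12.6% of all genes did. The part of such cells in the signals of the 7 genes was not tested.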

How the data were processed

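Total RNA of 2 cultures under 3 conditions was labelled as biotinylated cRNA and hybridised to 1-colour Affymetrix Mouse Genome 430 2.0 arrays, per the labels' protocols. The deposited table gives each probe set's intensity on a linear scale. Their mean after trimming 2% at each end was 100.001 on every array, so the authors appear to have scaled them to a common target; the software is not given in the sources used here. Gene symbols came from the platform annotation: 34945 probe sets had 1 symbol, 932 several and 9160 none, and 64 control probe sets were left out.

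Signals were turned into log2(intensity + 3.37), 3.37 being the 25th percentile of all values. A filter at the 40th percentile of the mean over arrays kept 27022 probe sets. A gene's value is that of its brightest single-symbol probe set. Array medians differed by at most 1.21 times, under the limit of 1.5, so no normalization was added. limma 3.58.1 (R 4.3.3; lmFit, then eBayes with trend) fitted all groups together, and p-values were adjusted by Benjamini-Hochberg over 12917 genes. The fit was tested on simulated data without a culture effect, so that test does not cover the likeness between arrays of 1 culture.

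The culture was left out of the main fit, since the protocols name no block, and added in an alternative. The numbers in the labels pair the arrays, because same-numbered arrays come from the same embryo. The main fit ignores this pairing and the blocked fit uses it. Deviations from the group means correlated between arrays of 1 culture at 0.622 (LPS and Control), 0.535 (HS+LPS and LPS) and 0.568 (HS+LPS and Control). P-values of the main fit rest on the spread between the 2 cultures of a group, pooled over groups and drawn towards that of genes of like signal. Those with the block rest on how far the differences between groups varied from culture to culture.

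Where both arrays of the dimmer group were at or under noise, the fold is a lower bound, from the brighter group's mean log2 signal over the mean log2 noise level. The genes, lists, tests and noise rule were chosen with earlier results of these data known. Genes named beyond the 7 were those of the lists called in any comparison with or without the block (up to 6 a list), direct counterparts of the 7 named beforehand (some not analysed here), and the 3 nearest in pattern. Alternatives varied pseudocount, filter, scaling, probe set rule, variance trend, block and arrays.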

Additional observations from a re-analysis of the deposited data

How the results depend on the processing

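Leaving out the arrays 1 at a time moved the count of the 7 genes called to 0 for LPS against Control with every array (2 with all arrays), and to between 0 and 4 for HS+LPS against LPS (3 with all arrays); the lone array of a group is then assumed to vary like the others. With the replicate block the counts were 5 and 5. For LPS against Control 0 genes were called at a pseudocount of 1 or with the filter at the 60th percentile, 1 after quantile normalization, 1 without the intensity trend and 1 with all probe sets tested. Slc7a2 was called as well, giving 3, with median centring, the mean of probe sets or no _x_at and _s_at probe sets. At a pseudocount of 16 it was called and Acod1 was not, giving 2. For HS+LPS against LPS 1 was called at a pseudocount of 1 and 1 with the filter at the 60th percentile, and 4, Gch1 being added, at a pseudocount of 16 or with median centring. At a pseudocount of 1 Nos2 and Acod1, and with the higher filter these, Arg2 and Ass1, were no longer tested, which lowers the counts. With a pseudocount of 1 and no filter, an alternative chosen after seeing the data like the fit of all probe sets, the counts were 2 and 3. HS+LPS against Control had 0 under every alternative. Arg2 passed in no alternative other than the block.

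Signs turned only in differences that were not called. With the second brightest probe set Odc1 was at 0.060 for HS+LPS against LPS and Slc7a2 at 0.0012 for HS+LPS against Control. Leaving out 1 array, Odc1 ranged from -0.075 to 0.34 for LPS against Control, from -0.22 to 0.14 for HS+LPS against LPS and from -0.11 to 0.30 for HS+LPS against Control. Ass1 ranged from -1.13 to 0.85 for HS+LPS against LPS. For HS+LPS against Control Gch1 ranged from -0.29 to 0.54 and Acod1 from -0.0075 to 0.22.

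Over all genes, the block called 359 for LPS against Control (19 without it), 2443 for HS+LPS against LPS (173) and 2219 for HS+LPS against Control (23). Leaving out 1 array gave 0 to 4, 8 to 76 and 8 to 14, and no intensity trend 5, 84 and 13. For HS+LPS against Control there were 58 at a pseudocount of 16, 59 with median centring, 37 with the higher filter and 40 with all probe sets tested.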
